A study of Homo sapiens with 6 samples.

Results

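Entry into and exit from mitosis depend on a set of 47 genes described here, which encode the CDK1 engine with its cyclins and phosphatases, the mitotic kinases, the spindle checkpoint, the kinesin motors, kinetochore proteins and the factors that build the spindle and divide the cell. They were taken by symbol from a list grouped by known function, which was drawn up with earlier results of these data known, and all 47 were found among the 58174 gene IDs of the deposited transcript table. Transcript counts were summed for each gene. All 47 had a mean of at least 1 CPM (counts scaled to library size, with TMM factors), as did 14524 genes in all, and the smallest count of a member in any column was 263.

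Cells start mitosis when CDK1 bound to cyclin B becomes active, after CDC25 phosphatases remove its inhibitory phosphates. The spindle checkpoint then holds CDC20, the activator of the anaphase-promoting complex, until every chromosome is attached, and the complex afterwards marks cyclin B and securin for destruction so that separase can part the sister chromatids. Transcripts of most of these genes are repressed in G1 by the DREAM complex and switched on in G2 by MYBL2 and FOXM1, so that their summed level in a bulk culture is widely used as a mark of proliferation.

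The RNA came from MDA-MB-231, an established human triple-negative breast cancer line, as total RNA extracted with Trizol and made into stranded libraries. The genotype labels give a control group (NC) and 2 groups named KO1 and KO2, both with the genotype of an ARID1A knockout. ARID1A encodes a large subunit of BAF (SWI/SNF), which moves nucleosomes along DNA, and the labels do not say whether KO1 and KO2 are clones, pools or guides. Each of the 3 groups has 2 samples, but the table holds 1 column per group with no replicate number, so every value below stands without a spread over cultures.

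The 3 columns hold 25801499 to 26798753 estimated counts, with 12.8% to 20.5% of them from the mitochondrial chromosome and the highest share in KO1. ARID1A itself (ENSG00000117713) was at 77.3 CPM in NC, 45.7 CPM in KO1 and 83.9 CPM in KO2, so its RNA level does not set the column labelled KO2 apart from NC. The names KO1 and KO2 below stand for the columns with those labels. Line markers fixed for the check were present, with VIM at 3411, 4719 and 2925 CPM. Of 6 luminal genes fixed as low in the line, PGR was at 0 counts in each column. ESR1 was at 0 counts in NC and KO1 and 14 counts in KO2. Not all of that list was low. Its 6 genes summed to 520, 690 and 629 CPM, with 3 of them at a mean of at least 1 CPM and a highest value of 435, 647 and 560 CPM. The 8 leukocyte markers summed to 1.83 to 6.75 CPM, the 8 endothelial markers to 3.35 to 8.21 CPM and the 8 fibroblast markers to 32.9 to 50.5 CPM, most of it COL1A1, and DCN was at 0 counts in each column.

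Promoters of the mitotic genes are known for a pair of short elements, the cell cycle homology region (core TTTGAA), which recruits DREAM and MuvB complexes, and the CCAAT box bound by NF-Y. RefSeq (GRCh38.p14) gave promoter entries, 250 bases before to 50 after the start, for 40 of the 47 genes, those other than AURKA, FOXM1, TPX2, BUB3, TTK, UBE2C and BIRC5. Both motifs were searched on both strands. TTTGAA stood in at least 1 promoter of 30 of those 40 genes (75%), against 18.2% of all 27305 genes in the table of promoters and 13.6% of the 10668 that were also measured here. CCAAT stood in 33 of 40 (82.5%), against 39.7% of all genes and 43% of the measured ones. Both occurred in 25 of 40 genes (62.5%), against 8.37% and 7.34%. A match is a description of the letters and not a bound site. Among the 34 genes with a single promoter entry, the shares were 79.4% for either motif, against 16% and 36.2% of the 22114 genes of that kind.

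**Figure D1:**
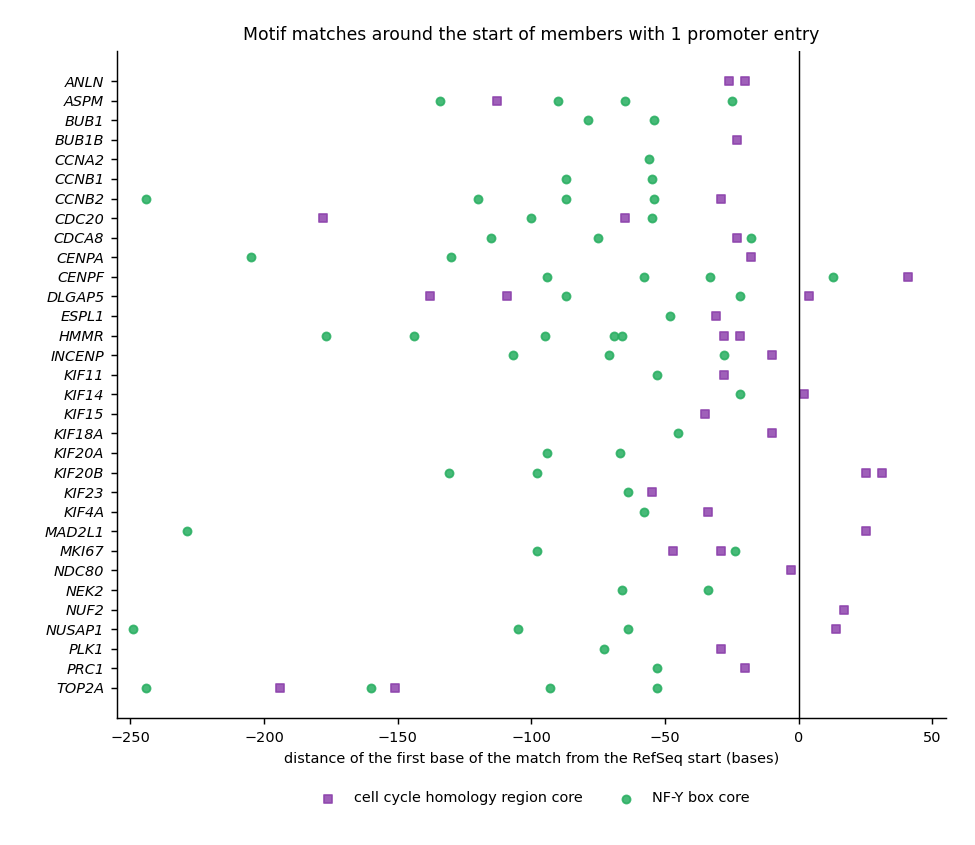
Positions of both motifs for the members with 1 RefSeq promoter entry that hold a match. Each square is a cell cycle homology region core and each circle an NF-Y box core, placed by the distance in bases of its first base from the start. Of 35 squares 28 lie from 60 bases before the start onward, and of 58 circles 38 lie 40 to 120 bases before it.

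The windows below show how the motifs sit in front of genes that differed between the columns and in front of 1 that did not. Each is the 130 bases that end at the base before the RefSeq start, printed 5′ to 3′ on the strand of the gene, with TTTGAA and CCAAT or their reverse complements TTCAAA and ATTGG in capitals. INCENP (chr11:62123881-62124010, plus strand), MKI67 (chr10:128126424-128126553, minus strand), BUB1B (chr15:40160939-40161068, plus strand) and KIF20A (chr5:138178982-138179111, plus strand) were lower in KO1. ANLN (chr7:36389732-36389861, plus strand) was higher in KO2, and CCNB2 (chr15:59105016-59105145, plus strand) stayed within 1.5-fold of NC in both.
INCENP: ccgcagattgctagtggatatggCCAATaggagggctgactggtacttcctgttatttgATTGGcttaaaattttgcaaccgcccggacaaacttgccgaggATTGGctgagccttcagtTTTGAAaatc
MKI67: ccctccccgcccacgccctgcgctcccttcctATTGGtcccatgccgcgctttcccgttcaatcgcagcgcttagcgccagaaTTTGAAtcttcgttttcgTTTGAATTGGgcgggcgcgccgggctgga
BUB1B: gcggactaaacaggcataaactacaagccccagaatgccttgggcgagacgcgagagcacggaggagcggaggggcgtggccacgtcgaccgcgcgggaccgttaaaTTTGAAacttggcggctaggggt
KIF20A: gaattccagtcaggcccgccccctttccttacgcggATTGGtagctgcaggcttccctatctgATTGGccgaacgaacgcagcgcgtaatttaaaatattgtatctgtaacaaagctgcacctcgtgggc
ANLN: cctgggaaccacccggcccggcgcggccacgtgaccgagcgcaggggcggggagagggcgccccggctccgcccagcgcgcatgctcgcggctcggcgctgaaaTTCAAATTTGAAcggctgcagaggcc
CCNB2: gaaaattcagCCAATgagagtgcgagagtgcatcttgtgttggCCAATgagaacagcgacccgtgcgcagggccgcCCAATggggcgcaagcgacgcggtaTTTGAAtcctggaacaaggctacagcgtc

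The 4 printed genes, out of 7 members that were lower in KO1, do not share 1 arrangement. MAD2L1, also lower but not printed, has its TTTGAA after the start and its CCAAT 229 bases before it, outside such a window. INCENP holds 1 TTTGAA and 3 CCAAT boxes in its window, MKI67 holds 2 of each with the last pair overlapping by 1 base, BUB1B holds TTTGAA alone and KIF20A holds CCAAT alone. ANLN holds TTCAAA directly followed by TTTGAA and no CCAAT. The 30 members with TTTGAA had a median log2 fold over NC of 0.01 in KO1 and 0.31 in KO2, and the 10 without it -0.10 and 0.07. For KO2 over KO1 the medians were 0.60 and 0.23. Single genes ranged from -1.99 to 0.97 with TTTGAA and from -1.14 to 0.87 without it in KO1, and the difference between these sets was not tested.

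Levels are compared between genes per length, as TPM. UBE2C, the ubiquitin-conjugating enzyme of the anaphase-promoting complex, was the most abundant member in every column, at 979 TPM in NC, 694 TPM in KO1 and 562 TPM in KO2. HMMR, a spindle-associated protein, was the least abundant, at 4.95, 5.29 and 6.35 TPM, and CENPE, the kinetochore kinesin, came next above it in every column. The order between these ends was less stable. ANLN, a scaffold of the cleavage furrow, was at 357 TPM in KO2, second in that column, against 143 TPM in NC and 106 TPM in KO1. CCNB1, cyclin B1, was below UBE2C and PTTG1 alone in KO1, at 226 TPM against 148 TPM in NC.

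**Figure D2:**
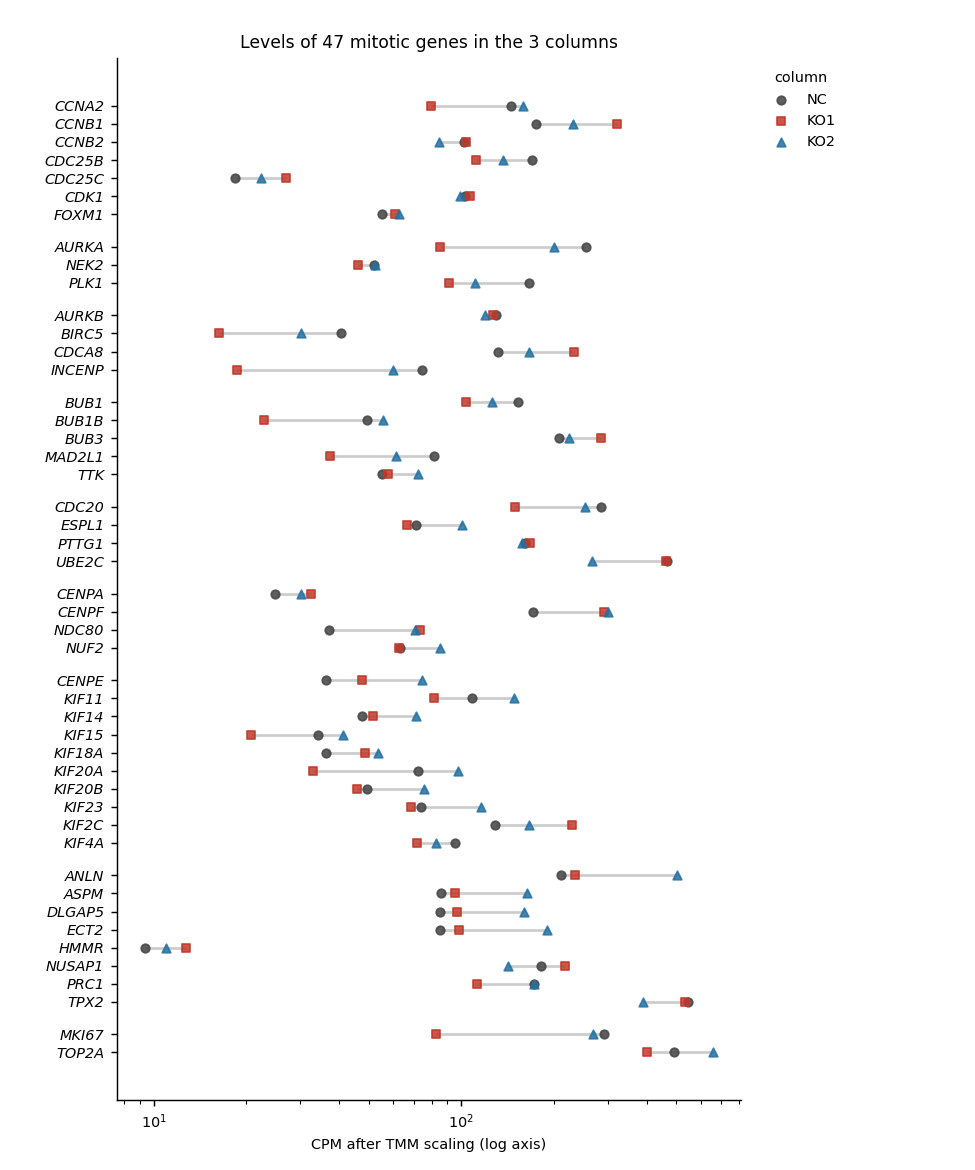
Level of each of the 47 genes in CPM on a log axis, with 1 point per column (circle NC, square KO1, triangle KO2) and a grey line from the lowest to the highest. Genes are grouped by role in the order of the text. For INCENP, MKI67, AURKA, BIRC5, BUB1B, KIF20A and MAD2L1 the KO1 square lies far to the left, and for ANLN, ECT2 and CENPE the KO2 triangle lies to the right.

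Differences between single columns were called by a size rule with no p-value. A gene passed when its log2 fold was at least 1 in size, its exact 95% interval did not hold a fold of 1 and its mean was at least 1 CPM. Intervals in brackets cover counting error only. In KO1, 7 of the 47 members were lower than NC (14.9%) and 0 were higher, where 17.4% of all measured genes were lower and 15.4% higher, 32.8% in all. In KO2, 0 members were lower and 3 were higher (6.38%), where 9.98% of all measured genes were lower and 11% higher, 21% in all. Both comparisons share the NC column. The share of lower members in KO1 was thus near that of genes at large, and the other shares were below it. In a bulk culture fewer cells in mitosis and less RNA per cell cannot be told apart.

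Over the 47 members the median log2 fold was -0.01 in KO1, the same as over all measured genes, and 0.22 in KO2, against -0.00 over all measured genes. Their summed level was 6281 CPM in NC, 5820 CPM in KO1 and 6917 CPM in KO2. Within 1.5-fold of NC lay 29 members in KO1 and 37 in KO2, where 45% and 56.3% of all measured genes did. Scaling by total counts in place of TMM lowers every log2 fold of KO1 over NC by 0.23, members and other genes alike, and then 11.3% of all measured genes were higher and 22.7% lower in KO1.

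**Figure D3:**
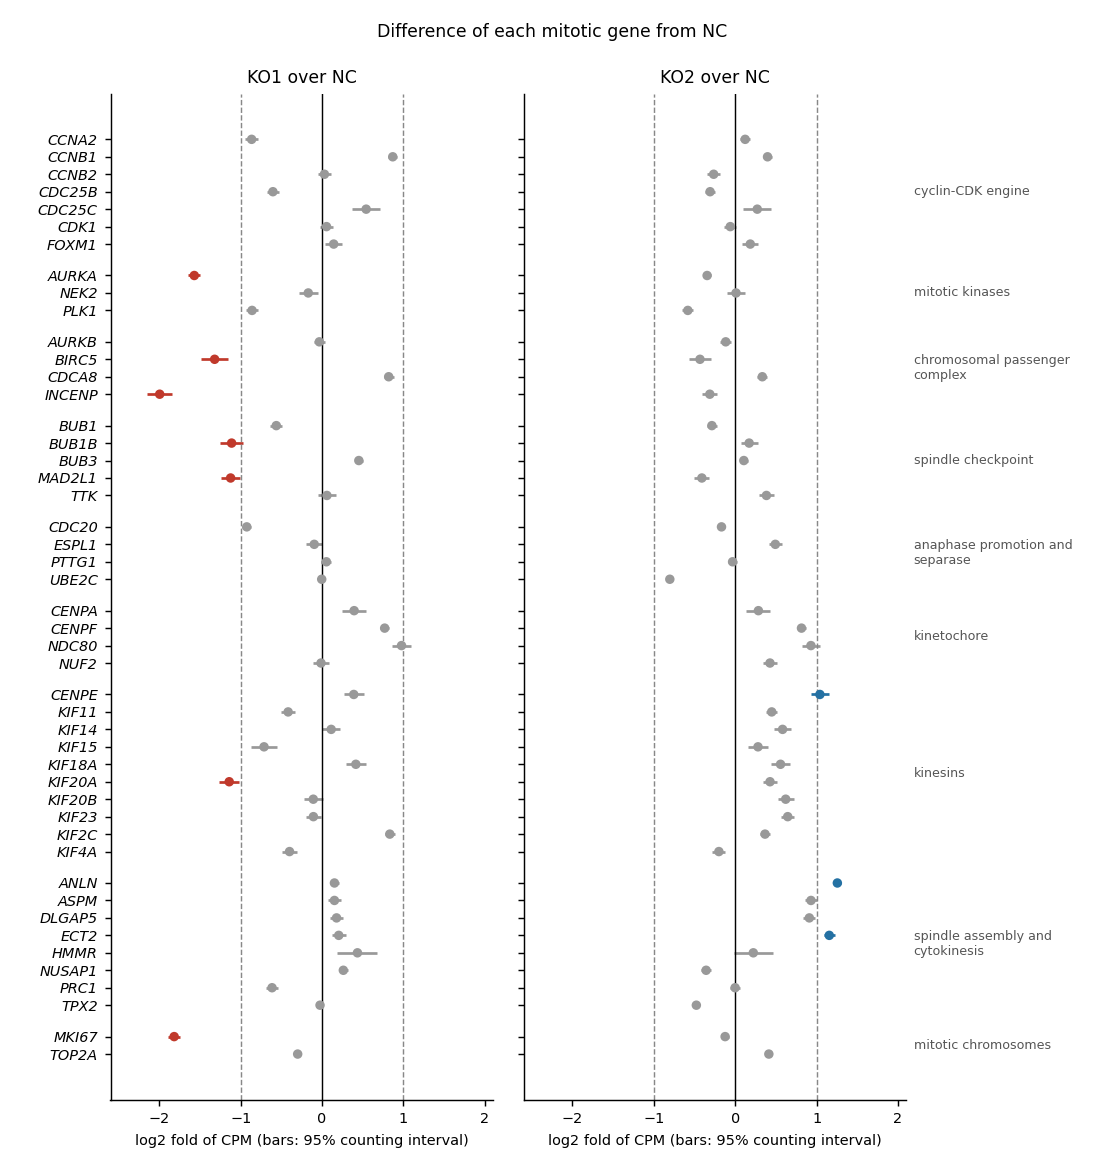
Log2 fold of CPM over NC for each gene in KO1 (left) and KO2 (right), with bars for the 95% counting interval and dashed lines at -1 and 1. Coloured points passed the size rule, 7 of them below -1 in KO1 and 3 above 1 in KO2, and grey points did not.

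Of the 7 genes of the CDK1 engine 0 passed the rule in either column, where 32.8% of all measured genes passed in KO1 and 21% in KO2. CDK1, the catalytic subunit, was at 103 CPM in NC, 107 CPM in KO1 and 98.9 CPM in KO2, so the 3 values lie close together. FOXM1, the transcription factor of the G2 programme, was at 55.3, 61.0 and 62.8 CPM. CCNB2, cyclin B2, was at 102, 104 and 84.6 CPM, and CDC25C, a phosphatase that activates CDK1, at 18.4, 26.8 and 22.2 CPM. CCNB1 and CCNA2 moved apart in KO1 without passing the rule. CCNB1 was at 175 CPM in NC, 320 CPM in KO1 and 231 CPM in KO2, a log2 fold of 0.87 in KO1. CCNA2, cyclin A2, which works from S phase into early mitosis, was at 145, 79.7 and 158 CPM, a log2 fold of -0.87 in KO1. The ratio of CCNB1 to CDK1 counts, which does not depend on library scaling, was 1.70 (1.62 to 1.78) in NC, 2.99 (2.85 to 3.13) in KO1 and 2.33 (2.23 to 2.44) in KO2. That of CCNA2 to CDK1 was 1.41 (1.34 to 1.48), 0.745 (0.701 to 0.791) and 1.60 (1.52 to 1.68). CDC25B, the phosphatase of early mitotic entry, was at 170, 112 and 137 CPM.

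Among the mitotic kinases AURKA stood out in KO1. AURKA (ENSG00000087586, hg38 chromosome 20, 56369389 to 56392337), the centrosome and spindle pole kinase, measured 254 CPM in NC, 85.4 CPM in KO1 and 199.8 CPM in KO2. KO1 was 2.97-fold lower than NC (2.83 to 3.12), and KO2 1.27-fold lower (1.23 to 1.32). PLK1, the polo-like kinase of centrosomes, kinetochores and cytokinesis, was at 165, 91.1 and 110.5 CPM, below NC in both columns but short of the rule, with log2 folds of -0.86 and -0.58. NEK2, a kinase of centrosome separation, was at 52.0, 46.3 and 52.4 CPM. TPX2, which activates AURKA on spindle microtubules, was at 544, 534 and 390 CPM, so that AURKA counts per TPX2 count were 0.467 (0.454 to 0.480) in NC, 0.160 (0.152 to 0.168) in KO1 and 0.512 (0.495 to 0.528) in KO2.

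AURKA, TPX2, UBE2C and CDC25B all lie on chromosome 20. The 381 measured genes of that chromosome had a median log2 fold over NC of -0.42 in KO1 and -0.44 in KO2, and these 4 members medians of -0.31 and -0.41. UBE2C was at 466, 464 and 267 CPM, and its log2 fold of -0.80 was the lowest of any member in KO2. The part of the chromosome's median in these 4 values was not tested.

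The chromosomal passenger complex corrects wrong attachments and guides cytokinesis. In KO1, where 17.4% of all measured genes were lower, 2 of its 4 subunits were lower and 2 did not pass. INCENP (ENSG00000149503, chromosome 11, 62123973 to 62153163), its scaffold, measured 74.5 CPM in NC, 18.7 CPM in KO1 and 60.1 CPM in KO2. It was 3.99-fold lower in KO1 (3.59 to 4.43), the lowest log2 fold of all members at -1.99. BIRC5 (ENSG00000089685, chromosome 17, 78214186 to 78225636), or survivin, which docks the complex on centromeres, measured 40.7, 16.3 and 30.2 CPM, 2.50-fold lower in KO1 (2.22 to 2.81). The other two subunits did not share this. CDCA8, or borealin, was at 132, 232 and 166 CPM, and the kinase AURKB at 130, 127 and 120 CPM. INCENP counts per CDCA8 count were 0.566 (0.536 to 0.597) in NC, 0.0805 (0.0728 to 0.0888) in KO1 and 0.362 (0.342 to 0.383) in KO2, and BIRC5 counts per CDCA8 count were 0.309, 0.0702 and 0.182. Both ratios were lowest in KO1 and intermediate in KO2, with intervals that do not overlap. The ratio of counts carries the lengths of both transcripts, so its change between columns is what can be read.

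Of the spindle checkpoint genes 2 of 5 were lower in KO1, where 17.4% of all measured genes were. Both lay just past the cut. BUB1B (ENSG00000156970, chromosome 15, 40161023 to 40221136), which encodes BUBR1, an inhibitor of CDC20, measured 49.3 CPM in NC, 22.8 CPM in KO1 and 55.6 CPM in KO2, or 2.16-fold lower in KO1 (1.95 to 2.39). MAD2L1 (ENSG00000164109, chromosome 4, 120055608 to 120067074), which encodes MAD2, measured 81.3, 37.3 and 61.2 CPM, 2.18-fold lower in KO1 (2.01 to 2.36). BUB1, the kinase that recruits them, was at 153, 104 and 126 CPM. BUB3, the adaptor that ties BUB1 and BUBR1 to kinetochores, was at 208, 284 and 224 CPM, and TTK, the kinase that starts the signal, at 55.3, 57.6 and 72.2 CPM. BUB1B counts per BUB3 count were 0.237 (0.224 to 0.252) in NC and 0.248 (0.235 to 0.263) in KO2, whose intervals overlap, against 0.0803 (0.0733 to 0.0878) in KO1.

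Genes of anaphase onset did not pass in either column. CDC20 was at 284 CPM in NC, 149.8 CPM in KO1 and 253 CPM in KO2, with a log2 fold of -0.93 in KO1. PTTG1, or securin, the inhibitor of separase, was at 161, 167 and 158 CPM, and ESPL1, separase itself, at 71.4, 66.8 and 100.5 CPM. The members just inside the rule on the lower side of KO1 were BUB1B, MAD2L1 and KIF20A, at log2 folds of -1.11, -1.12 and -1.14. Those just outside it were CDC20, CCNA2 and PLK1, at -0.93, -0.87 and -0.86.

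Summed over transcripts, kinetochore genes were higher than NC in both columns or near it, and none passed. NDC80, the microtubule-binding subunit that gives the NDC80 complex its name, was at 37.2 CPM in NC, 73.2 CPM in KO1 and 70.9 CPM in KO2, with log2 folds of 0.97 and 0.93, the closest of any member to passing in both. CENPF, a large kinetochore and nuclear envelope protein, was at 171, 291 and 300.5 CPM. CENPA, the centromeric histone H3 variant, was at 24.8, 32.6 and 30.2 CPM. NUF2, the partner of NDC80, was at 63.2, 62.6 and 85 CPM, and NUF2 counts per NDC80 count went from 1.70 (1.57 to 1.83) in NC to 0.855 (0.796 to 0.918) in KO1 and 1.20 (1.13 to 1.27) in KO2. NDC80 is on chromosome 18, whose 197 measured genes had medians of 0.22 and 0.16.

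Of the 10 kinesins 1 passed in each column, where 32.8% of all measured genes passed in KO1 and 21% in KO2. KIF20A (ENSG00000112984, chromosome 5, 138178719 to 138187715), which carries the passenger complex to the central spindle, measured 72.4 CPM in NC, 32.8 CPM in KO1 and 97.4 CPM in KO2. It was 2.21-fold lower than NC in KO1 (2.03 to 2.40) and 1.35-fold higher in KO2 (1.27 to 1.43). Its span overlaps CDC23 and BRD8 on the other strand, and whether the counting used strand is not given in the sources used here. CCNA2, CDC25C, KIF4A and FOXM1 likewise overlap a coding gene on the other strand, one with 46.5% to 310.5% of the member's own counts. CENPE (ENSG00000138778, chromosome 4, 103105806 to 103198409) was at 36.2, 47.4 and 74.5 CPM, 2.06-fold higher in KO2 (1.91 to 2.22).

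The other kinesins kept below the rule when all their transcripts were summed. KIF11, which pushes the spindle poles apart, was at 109, 81.3 and 148 CPM, and KIF15, its partner in keeping the spindle bipolar, at 34.1, 20.8 and 41.4 CPM. KIF23, the motor subunit of centralspindlin, was at 74.0, 68.7 and 116 CPM, KIF14, a motor of cytokinesis, at 47.7, 51.6 and 71.4 CPM, and KIF20B at 49.3, 45.7 and 75.7 CPM. The noncoding transcript KIF20B-204 made up 64.9% of the NC value for KIF20B, 20.9% of the KO1 value and 14.2% of the KO2 value. The coding transcript KIF20B-202 was listed at 477, 635 and 1732 counts. Unlike the sum, it was thus higher in KO1 than in NC. KIF2C, a depolymerase that releases wrong attachments, was at 129, 229 and 166 CPM, and KIF18A, which restrains chromosome movement, at 36.4, 48.5 and 53.6 CPM. KIF4A, the chromokinesin that shortens the midzone, was at 95, 72.0 and 82.7 CPM. In KO2 8 of the 9 genes of this kind other than CENPE lay above NC, the exception being KIF4A. So did 29 of the 47 members and 7208 of the 14524 measured genes.

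Spindle assembly and cytokinesis genes held the other two that passed in KO2. ANLN (ENSG00000011426, chromosome 7, 36389806 to 36453791) measured 210 CPM in NC, 234 CPM in KO1 and 502 CPM in KO2, 2.39-fold higher in KO2 (2.32 to 2.46). The 723 measured genes of chromosome 7 had median log2 folds over NC of 0.38 in KO1 and 0.37 in KO2. ECT2 (ENSG00000114346, chromosome 3, 172750682 to 172821474), the exchange factor that activates RhoA at the cleavage furrow, measured 85.2, 98.2 and 190 CPM, 2.23-fold higher in KO2 (2.12 to 2.34). Just outside the rule in KO2 were ASPM, a spindle pole protein, at 85.9, 95.4 and 164 CPM, and DLGAP5, a stabiliser of kinetochore fibres, at 85.3, 96.5 and 160.4 CPM. PRC1, the bundler of the central spindle, was at 172, 112 and 172 CPM. NUSAP1, a spindle microtubule binder, was at 182, 218 and 142 CPM, and HMMR at 9.39, 12.7 and 11 CPM.

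The higher values in KO2 went with base composition and length. The 47 members had a median GC content of 43.2%, against 48.9% over measured genes, and a median length of 3117 bases against 2743. Spearman's rho between the log2 fold of KO2 over NC and GC content was -0.61 over the 47 members and -0.29 over 14514 measured genes, as a description over genes that share 2 columns. For length it was 0.38 and 0.19. ANLN, ECT2 and CENPE are among the members low in GC, at 36.7%, 37.0% and 35.4%. After a trend on both properties was taken out, 0 of 47 members were higher in KO2 by the rule, where 9.56% of all measured genes were. The log2 folds of ANLN, ECT2 and CENPE were then 0.82, 0.68 and 0.37, still above 0. The median was -0.01 over the members and -0.06 over all measured genes, and all 7 lower members of KO1 still passed.

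Of the mitotic chromosome genes MKI67 was lower in KO1 and TOP2A was not. MKI67 (ENSG00000148773, chromosome 10, 128096659 to 128126385), which encodes the proliferation marker Ki-67 that coats mitotic chromosomes, measured 291 CPM in NC, 82.5 CPM in KO1 and 267 CPM in KO2. It was 3.53-fold lower than NC in KO1 (3.35 to 3.71) and 1.09-fold lower in KO2 (1.06 to 1.12). TOP2A, the topoisomerase that untangles sister chromatids, was at 493, 400 and 656 CPM. MKI67 counts per TOP2A count were 0.591 (0.575 to 0.607) in NC, 0.206 (0.196 to 0.217) in KO1 and 0.407 (0.396 to 0.418) in KO2.

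Both knockout-labelled columns can also be set against each other, which shows how far 2 columns of 1 genotype label differ. By the same rule 6 members were higher in KO2 than in KO1 and 0 were lower, or 12.8% of the members, where 14.9% of all measured genes were higher and 11.2% lower, 26.1% in all. The 6 were MKI67 (3.24-fold, 3.08 to 3.40), INCENP (3.21-fold, 2.89 to 3.58), KIF20A (2.97-fold, 2.74 to 3.22), BUB1B (2.43-fold, 2.20 to 2.69), AURKA (2.34-fold, 2.22 to 2.46) and ANLN (2.15-fold, 2.08 to 2.22). The median log2 fold of KO2 over KO1 was 0.32 over the members and 0.04 over all measured genes. With total counts in place of TMM, 14 members were higher, where 21.5% of all genes were.

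A test over all genes was possible only with KO1 and KO2 taken as 1 group of 2 columns against NC. Its p-values measure the spread between those 2 columns, with 1 residual degree of freedom, and assume that the lone NC column varies in the same way. By edgeR's quasi-likelihood test 0 of the 47 members were called, and 0 had an unadjusted p under 0.05, where 48 of 18289 genes (0.262%) were called and 8.13% had an unadjusted p under 0.05. Adjusted p over the members ranged from 0.847 for NDC80 to 0.999 (edgeR, Benjamini-Hochberg). DESeq2 also called 0 members, with 0 at an unadjusted p under 0.05. No member is therefore said here to have risen or fallen.

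Another 120 genes were listed as mitotic, those of the kinetochore, the anaphase-promoting complex, condensin and cohesin, further motors and mitotic entry, all measured. Of these, 4 were higher and 12 lower in KO1 (median log2 fold -0.16), and 10 higher and 3 lower in KO2 (0.06). The motors include KIF3A and KIF5B, which are not particular to mitosis, and KIF3A is among the 10 higher in KO2. The shares over all measured genes were 15.4% higher and 17.4% lower in KO1, and 11% and 9.98% in KO2. CIT, or citron kinase, which acts at the midbody, was at 103 CPM in NC, 12.7 CPM in KO1 and 76.2 CPM in KO2. CENPO, an inner kinetochore protein, was at 66.7, 8 and 75.8 CPM, and the cohesin ring subunit SMC1A at 109, 23.6 and 103 CPM. MASTL, the Greatwall kinase that restrains the phosphatase opposing CDK1, was at 82.8, 22.4 and 62.3 CPM. DEPDC1 was at 33.6, 110 and 107 CPM and MIS12, an outer kinetochore assembly factor, at 21.8, 60.4 and 47.9 CPM, both higher in both columns. TRIP13, an ATPase that remodels MAD2, was at 157, 46.2 and 67.7 CPM, lower in both.

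Of 17 subunits and regulators of the anaphase-promoting complex 0 passed in KO1, and 1, the inhibitor FBXO5, was higher in KO2, at 28.3, 27.1 and 57.1 CPM. The DREAM and MuvB group, with its cell cycle inhibitors, regulates the mitotic promoters, and 23 of its genes were measured. Of these 23, 6 were higher and 7 lower in KO1, and 1 was higher and 1 lower in KO2. Of all measured genes 15.4% were higher and 17.4% lower in KO1, and 11% and 9.98% in KO2. MYBL2, the B-MYB activator of those promoters, was at 272 CPM in NC, 41.1 CPM in KO1 and 89.8 CPM in KO2, lower in both. NFYA, the DNA-binding subunit of NF-Y, was at 24.3, 66.3 and 68.5 CPM, higher in both.

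The replication genes of the G1 to S step, which precede the mitotic genes in the cycle, were also listed. Of 38 such genes 27 were lower and 0 higher in KO1 (median log2 fold -1.42), against 7 and 0 of the 47 mitotic genes (-0.01). In KO2 0 of 38 were lower and 1 higher (-0.33). Of all measured genes 17.4% were lower and 15.4% higher in KO1, and 9.98% and 11% in KO2. E2F2, CCNE2 and UHRF1 had the largest differences, E2F2 at 15.7, 0.739 and 8.39 CPM.

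**Figure D4:**
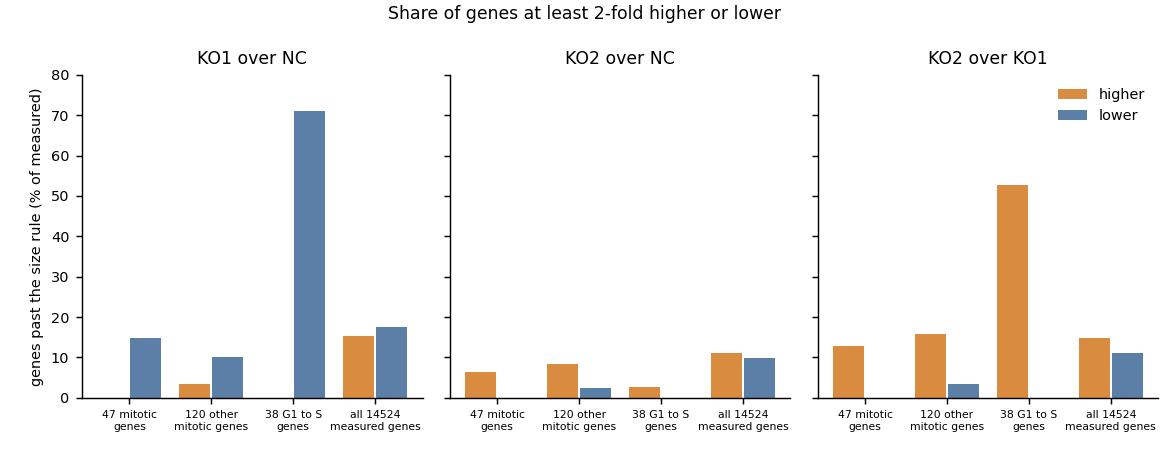
Percent of measured genes that were higher (orange) or lower (blue) by the size rule in each pair of columns, for the 47 mitotic genes, 120 other mitotic genes, 38 G1 to S genes and all 14524 measured genes. In the KO1 panel the bar for lower G1 to S genes is the tallest, and the bar for lower mitotic genes (14.9%) is close to that for all genes (17.4%).

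The table also divides each gene's counts among transcripts. The same transcript held the most counts in all 3 columns for 32 members, and the leading transcript differed for 15. At least 90% of counts lay on transcripts that GENCODE release 29 annotates as coding for 37 members in NC and 35 in each of KO1 and KO2. The estimates for transcripts that share most of their sequence come without a measure of their error, and single shares should be read with that limit.

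Transcripts of AURKA were divided differently in each column. In the order NC, KO1 and KO2, AURKA-203 held 52.6%, 1.17% and 6.18% of the counts, AURKA-201 held 7.08%, 44.3% and 2.63%, and AURKA-202 held 1.70%, 7.28% and 80.1%. All of them are annotated as coding. When only the transcript with the most counts over the 3 columns was kept for each gene, the log2 fold of AURKA in KO1 was 0.52. This is opposite in sign to that of the whole gene. The kept transcript was AURKA-202, which led through its 4479 counts in KO2 and had only 121 in NC and 143 in KO1. A retained-intron transcript of PLK1, PLK1-202, held 42.1%, 16.5% and 4.33% of its counts in the columns NC, KO1 and KO2. For CENPA the noncoding transcript CENPA-204 held 47.1%, 84.2% and 51.9%, and SLC35F6, which overlaps CENPA on the same strand, was at 51.4, 71.3 and 53.2 CPM. The retained-intron transcript ANLN-212 held about the same share in each column, 55.4%, 50.8% and 51.7%. For KIF20A the coding transcript KIF20A-205 held 47.3% of counts in NC and 54.0% in KO2, and was listed at 0 counts in KO1.

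**Figure D5:**
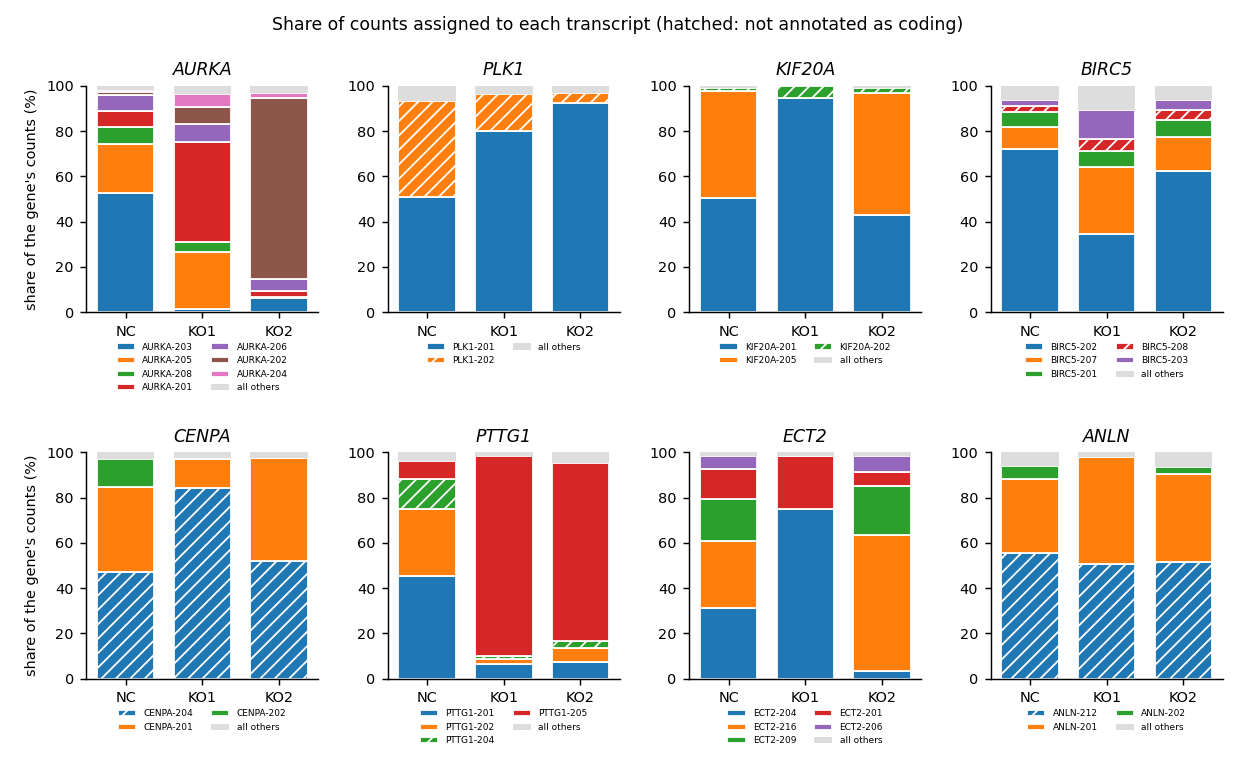
Share of each gene's counts, in percent, assigned to its transcripts in NC, KO1 and KO2 for 8 members, 1 colour per transcript, with hatching for transcripts not annotated as coding and grey for the sum of those under 5% in every column. The PLK1 bars show the retained-intron share at 42.1% in NC and 4.33% in KO2, and the AURKA bars show a different leading transcript in each column.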

How the data were processed

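RNA of 6 samples of MDA-MB-231 in 3 groups was deposited as 1 table with 1 column per group and unit. Its deposited values, per the file headers, are a count, a TPM and an FPKM for each transcript. The deposited Count columns hold whole numbers and were treated here like estimated counts (expected counts). The deposited TPM values served for levels between genes, and the 3 deposited FPKM columns were not used. Per the submitters' processing notes CASAVA, Bowtie2, featureCounts and hg38 were used, with no versions or roles.

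Counts were summed per gene and scaled with TMM (edgeR 4.0.16, R 4.3.3) after filterByExpr. Log2 folds used a prior count of 2, and intervals are exact Clopper-Pearson at 95%, conditional on the summed count. Genes could pass at a 2-fold difference and a mean of at least 1 CPM. The test over all genes used edgeR's quasi-likelihood test, two-sided, at a Benjamini-Hochberg adjusted p of 0.05, with DESeq2 1.42.0 as an alternative. Symbols, transcript types, lengths and GC content come from current gene names and GENCODE release 29, whose use by the authors is not stated. The trend on GC content and length was removed with lowess (statsmodels 0.14.6).

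The members, lists and tests were chosen with earlier results of these data known. Named were all 47 members, ARID1A, and up to 3 genes per direction of each list with a mean of at least 5 CPM. SLC35F6, CDC23 and BRD8 were named after their positions were seen, and marker genes as checks. The table gives no molecular identifiers, so fragments may repeat 1 molecule.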

Additional observations from a re-analysis of the deposited data

How the results depend on the processing

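No paired analysis was possible because the columns carry no replicate number, and for the same reason no replicate could be left out. DESeq2 size factors, nuclear genes only, a prior count of 0.5, no low-value filter and a minimum of 5 CPM left every count of members within 1.5 times its value. Total counts moved 1 count beyond that, raising the members higher in KO2 over KO1 from 6 to 14, where 21.5% of all genes were. A fold of 1.5 in place of 2 gave 5 members higher and 13 lower in KO1 over NC, 9 higher and 1 lower in KO2 over NC, and 21 higher and 2 lower in KO2 over KO1, where the shares over all genes were 26.3% and 28%, 22.1% and 21%, and 26% and 21.9%. With only the leading transcript of each gene the same counts were 4 and 12, 6 and 4, and 14 and 6, where the shares over all genes were 20.9% and 22.8%, 15.8% and 15.9%, and 20.7% and 17.6%. With that transcript alone AURKA in KO1 over NC reversed to a log2 fold of 0.52, while KIF20A was at -0.24 and no longer passed. For AURKA it was AURKA-202, a minor transcript in both NC (1.70% of counts) and KO1 (7.28%). TPM took CENPE in KO2 over NC below the rule and gave 12 members lower in KO1 over NC and 15 higher in KO2 over KO1, where 21.5% and 19.6% of all genes were. Removal of the trend on GC content and length gave 1 member higher in KO1 over NC and 0 higher in KO2 over NC, where 15.8% and 9.56% of all genes were. The members' median log2 fold ran over all settings from -0.40 (TPM) to -0.01 in KO1 over NC, from -0.01 (trend removed) to 0.30 (TPM) in KO2 over NC, and from 0.20 (trend removed) to 0.77 (TPM) in KO2 over KO1. With TPM the medians over all genes were -0.33, 0.04 and 0.39. The test called 48 of all genes, 298 with DESeq2 and 490 with no low-count filter, and 0 members under each of its settings. Except for the settings that change the counted transcript, the cause of each shift was not tested. With 263 counts or more per member and column, counting depth was not what limited these values, and the lack of replicate columns was.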

Other observations

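Processed copies of the mitotic genes took few counts. KIF4B, an intronless relative of KIF4A, had counts of 5, 3 and 2 in NC, KO1 and KO2, and PTTG2 of 0, 1 and 0. Of the copies found by name UBE2CP5 had the most, with counts of 66, 217 and 265, while UBE2C itself had 13036, 10675 and 7473. AURKAP1 had 44, 20 and 10 counts. How the authors' estimates divided fragments between a gene and its copy is not given in the sources used here.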
